A study of Homo sapiens with 14 samples.

Results

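The eosinophil granule genes are the 5 genes EPX, PRG2, PRG3, RNASE2 and RNASE3, out of 39293 gene identifiers measured by RNA sequencing in MOLM14 cells. They were chosen because earlier results on these libraries showed them high in flasks 9, 11 and 12 of the FL early line. Their values in that line are therefore a description, given with no test. Levels are in CPM, counts per library after TMM scaling for depth, and a gene is called where its adjusted p is under 0.05. All 5 members passed the filter on low counts, PRG3 only through the FL early flasks, since it reached at most 4 counts in any other library. MOLM14 is a human acute myeloid leukaemia line that carries an internal tandem duplication in the receptor kinase FLT3, and gilteritinib inhibits FLT3 and AXL.

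The FL early line was MOLM14 with early gilteritinib resistance, kept in 10 ng/mL of FLT3 ligand (FL), with 4 libraries from flasks 9, 10, 11 and 12. The FGF2 early line was its counterpart kept in 10 ng/mL of fibroblast growth factor FGF2, with 4 libraries from flasks 5, 6, 7 and 8. The acute arm was parental MOLM14 treated for the first time, with 1 library each for the drug alone, the drug plus FGF2 and the drug plus FL, both ligands at 10 ng/mL. Gilteritinib was given at 100 nM for 48 h in both early lines and in the acute arm. The 3 parental libraries were untreated MOLM14, and all 4 arms derive from this 1 cell line. Each early line differs from parental cells in drug, ligand and resistance at once, and these cannot be told apart in that comparison. In the titles, flasks 10, 11, 12 and 9 are FL replicates 1, 2, 3 and 4. Nothing states that the flasks or the parental libraries were independent cultures. Should they share a culture, the p-values would describe nothing beyond the scatter among these libraries, which may be technical. Library totals ran from 25723575 to 33075041 estimated counts.

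Eosinophils are granulocytes that store a few strongly basic proteins in their large granules and release them against helminths and in allergic inflammation. The granule genes are transcribed early, at the promyelocyte stage, when GATA1, C/EBP factors and PU.1 act together on their promoters. Major basic protein, encoded by PRG2, forms the crystalline core of the granule, and PRG3 encodes its homolog. EPX encodes eosinophil peroxidase, a haem enzyme that makes hypobromous acid from bromide and hydrogen peroxide. RNASE2 encodes the eosinophil-derived neurotoxin and RNASE3 the eosinophil cationic protein, a pair of secreted ribonucleases, and RNASE2 is also transcribed in monocytes.

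EPX (ENSG00000121053) lies on chromosome 17, PRG2 (ENSG00000186652) and PRG3 (ENSG00000156575) on chromosome 11, and RNASE2 (ENSG00000169385) and RNASE3 (ENSG00000169397) on chromosome 14. The longest coding transcripts of RNASE2 and RNASE3 in GENCODE 29 were identical at 640 of 720 aligned bases (88.9%), and those of PRG2 and PRG3 at 541 of 787 (68.7%). The 250 bases upstream of the RefSeq start (GRCh38.p14) are shown for the 3 members whose promoters were at hand, because the 2 ribonuclease genes and PRG3 behaved differently in the FL early flasks. The promoters of EPX and PRG2 are named only. The capitals mark the letters TTGCNNAA, a core of the C/EBP motif, searched on both strands.
RNASE2, chr14:20955237-20955486, plus strand: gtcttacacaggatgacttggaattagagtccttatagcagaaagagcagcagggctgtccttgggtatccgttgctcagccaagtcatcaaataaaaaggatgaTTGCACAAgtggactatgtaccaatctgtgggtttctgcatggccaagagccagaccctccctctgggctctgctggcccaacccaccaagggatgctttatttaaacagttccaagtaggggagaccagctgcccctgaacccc
RNASE3, chr14:20891135-20891384, plus strand: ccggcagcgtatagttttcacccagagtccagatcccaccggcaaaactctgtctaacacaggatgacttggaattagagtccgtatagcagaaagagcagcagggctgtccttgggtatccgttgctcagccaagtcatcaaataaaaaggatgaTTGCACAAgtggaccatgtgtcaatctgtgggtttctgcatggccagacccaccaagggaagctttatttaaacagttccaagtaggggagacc
PRG3, chr11:57381151-57381400, minus strand: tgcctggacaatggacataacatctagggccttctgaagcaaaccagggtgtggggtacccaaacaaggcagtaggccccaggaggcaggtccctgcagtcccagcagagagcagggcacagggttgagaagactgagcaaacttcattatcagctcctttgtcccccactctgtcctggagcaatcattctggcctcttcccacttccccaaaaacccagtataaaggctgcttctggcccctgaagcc
The RNASE2 and RNASE3 windows shared 192 of 199 aligned bases (96.5%), and each held 1 C/EBP match, starting at position −145 in RNASE2 and −94 in RNASE3, counted back from −1 as the last base before the start. The motif was found in 9.05% of 35114 promoter windows of this length. None of the 3 windows held the GATA letters AGATAA, found in 9.17% of all windows, or the PU.1 letters GAGGAA, found in 23.6%. Other forms of the GATA motif were not searched, and the PRG3 window holds 1 of them, TGATAA, on the strand opposite to that shown. The share of all windows with that form was not computed. The PRG3 window held TATAAA from position −29, letters that 10.7% of all windows hold. All 4 motifs were searched on both strands, and no match overlapped another. A match is a description of the letters and not a bound site.

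Read by library, the 5 genes fell into 2 patterns. EPX, PRG2 and PRG3 were high in FL flasks 9, 11 and 12 and far lower in flask 10, whereas RNASE2 and RNASE3 were well expressed in every library and somewhat higher in all 4 FL flasks, flask 10 included. The stated pattern, high in 3 FL flasks only, therefore described EPX, PRG2 and PRG3 and not the 2 ribonucleases. In bulk samples, fewer cells of a type and less RNA per cell cannot be told apart, so a level here may reflect either.

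**Figure D1:**
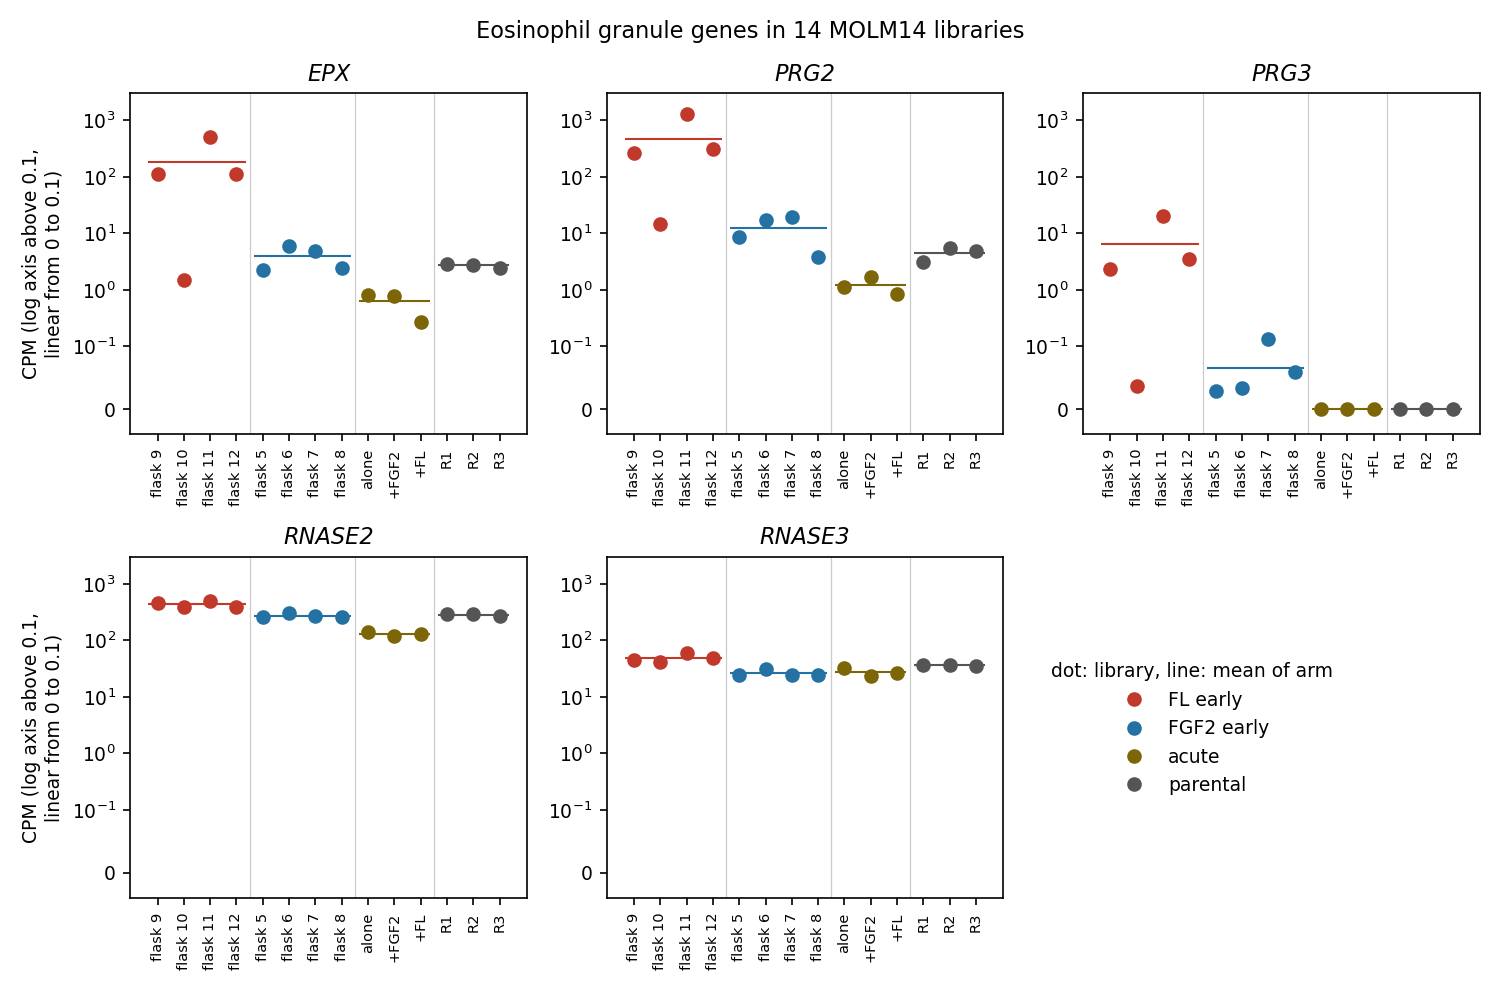
Expression of EPX, PRG2, PRG3, RNASE2 and RNASE3 in TMM-scaled CPM by library, on an axis that is logarithmic above 0.1 CPM and linear below it. Each dot is a library and each line the mean of an arm. EPX, PRG2 and PRG3 stand high in FL flasks 9, 11 and 12 and low in flask 10, while RNASE2 and RNASE3 vary little between flasks.

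PRG2, the core protein of the granule, reached 261.5, 14.5, 1300.3 and 313.8 CPM in FL flasks 9, 10, 11 and 12. It had 8.49, 17.3, 19.4 and 3.84 CPM in FGF2 flasks 5 to 8, then 1.11, 1.72 and 0.85 CPM in the acute cells (drug alone, plus FGF2, plus FL), against 3.09, 5.43 and 4.97 CPM in parental cells. Flask 11 was the highest library, flasks 9 and 12 lay close together below it, and flask 10 lay within the FGF2 range although it lay above all parental values. Relative to the parental mean of 4.49 ± 1.24 CPM (SD, n = 3), PRG2 was 58.2-fold, 3.23-fold, 289-fold and 69.8-fold higher in flasks 9, 10, 11 and 12.

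EPX, the granule peroxidase, was at 114.5, 1.49, 504.8 and 113.2 CPM in FL flasks 9, 10, 11 and 12. It stood at 2.30, 5.94, 4.96 and 2.43 CPM in FGF2 flasks 5 to 8, at 0.82, 0.79 and 0.27 CPM in acute cells, against 2.86, 2.81 and 2.48 CPM in parental cells. Flasks 9 and 12 were almost equal, flask 11 was far above both, and flask 10 lay below every parental library. The levels were 42.1-fold, 186-fold and 41.7-fold above the parental mean of 2.72 ± 0.20 CPM (SD, n = 3) in flasks 9, 11 and 12, and 0.55 of it in flask 10.

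PRG3, the homolog of major basic protein, had 68, 1, 644 and 105 counts in FL flasks 9, 10, 11 and 12, which is 2.33, 0.037, 20.3 and 3.49 CPM. It had 1, 1, 4 and 2 counts in FGF2 flasks 5 to 8, against 0 in all 3 acute and all 3 parental libraries. A count of 0 allows up to 3 counts in a library, or 0.105 CPM on average over the parental libraries, a limit that covers counting error only. Against that limit PRG3 was at least 22.1-fold, 193-fold and 33.2-fold higher in flasks 9, 11 and 12, and it was not detectable above it in flask 10. PRG3 thus gave the FL flasks the same order as PRG2, with flask 11 first, then flasks 12, 9 and 10.

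RNASE2, the neurotoxin gene, had 453.8, 396.3, 498.0 and 388.0 CPM in FL flasks 9, 10, 11 and 12. It had 258.3, 305.1, 273.1 and 260.6 CPM in FGF2 flasks, 141.8, 119.7 and 128.3 CPM in acute cells, against 290.0, 290.7 and 273.4 CPM in parental cells. All 4 FL flasks lay above every other library, by 1.36-fold to 1.75-fold over the parental mean of 284.7 ± 9.82 CPM (SD, n = 3). RNASE3, the cationic protein gene, had 45.7, 40.9, 60.2 and 49.4 CPM in FL flasks 9, 10, 11 and 12, then 24.8, 31.4, 24.7 and 24.6 CPM in FGF2 flasks, 31.9, 23.1 and 26.6 CPM in acute cells, against 36.6, 37.4 and 35.1 CPM in parental cells. Its FL flasks also lay above every other library, by 1.12-fold to 1.66-fold over the parental mean of 36.4 ± 1.21 CPM (SD, n = 3). For both ribonucleases flask 11 was again the highest library.

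As means over the 4 FL flasks, the spread of the first 3 genes was larger than the mean itself. EPX averaged 183.5 ± 220.7 CPM, PRG2 472.5 ± 567.1 CPM and PRG3 6.54 ± 9.29 CPM, whereas RNASE2 averaged 434.0 ± 51.7 CPM and RNASE3 49.1 ± 8.22 CPM (SD, n = 4). Relative to parental cells, the log2 fold change in the FL early line was 6.08 ± 1.25 for EPX, 6.72 ± 1.20 for PRG2, 0.61 ± 0.09 for RNASE2 and 0.43 ± 0.14 for RNASE3 (± SE). Without flask 11 the EPX value was 4.81 and the PRG2 value 5.46, and this 1 library was the highest for both genes. In 4 of the 5 members, PRG2, PRG3, RNASE2 and RNASE3, every FL flask lay above every parental library, for PRG3 by a single count in flask 10. Across all genes tested, 20.7% were called between these arms, and nothing is read from the members' count because the contrast chose them. Relative to the FGF2 early line, the log2 differences were 5.57 ± 1.06 for EPX, 5.28 ± 0.97 for PRG2, 0.66 ± 0.09 for RNASE2 and 0.90 ± 0.13 for RNASE3. There the flasks were fully separated for RNASE2 and RNASE3 alone, with 13.6% of all genes called, 9.56% higher and 4% lower. These 1507 higher and 630 lower calls became 1248 and 1002 with scaling to total counts alone, and the lower calls ranged from 303 to 1214 as each library was left out, the extremes being without FL flask 12 and without FL flask 9. Relative to acute cells, they were 8.16 ± 1.47 for EPX, 8.58 ± 1.37 for PRG2, 1.74 ± 0.10 for RNASE2 and 0.85 ± 0.14 for RNASE3, with all 5 members separated and 60.2% of all genes called. These 3 comparisons share the FL flasks.

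Corrected for transcript length, the make-up of the 5 transcripts differed between flasks. In parental cells RNASE2 stood at 377.1 ± 13.0 CPM per kb, ahead of RNASE3 at 50.5 ± 1.69, PRG2 at 3.16 ± 0.87 and EPX at 1.003 ± 0.076 CPM per kb (SD, n = 3), with PRG3 at 0 counts. In FL flask 11 PRG2 stood first at 913.1 CPM per kb, ahead of RNASE2 at 659.6 CPM per kb, followed by EPX at 186.4, RNASE3 at 83.7 and PRG3 at 23.4 CPM per kb. RNASE2 remained first in flasks 9 and 12, at 601.1 and 513.9 CPM per kb, ahead of PRG2 at 183.7 and 220.3 CPM per kb. PRG2 made up 20.6%, 1.72%, 48.9% and 26.0% of the summed CPM per kb in flasks 9, 10, 11 and 12, against 0.49% to 0.86% in parental libraries.

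**Figure D2:**
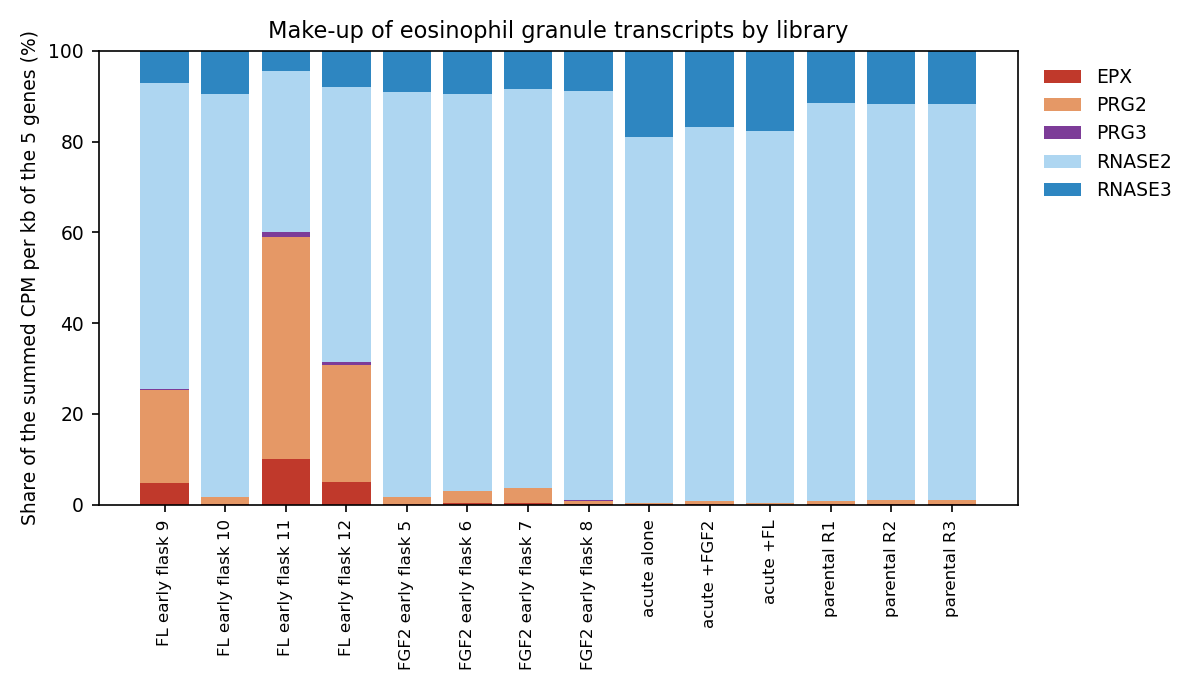
Share of EPX, PRG2, PRG3, RNASE2 and RNASE3 in their summed CPM per kb of transcript, in percent, with 1 stacked bar for each library. RNASE2 fills 35.3% of the bar of FL flask 11, against 87.1% to 87.7% in parental libraries, and flask 10 resembles the FGF2 flasks.

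EPX and PRG2 kept a similar proportion wherever they were high. The ratio of PRG2 to EPX, per length, was 4.35, 4.90 and 5.27 in FL flasks 9, 11 and 12, although flask 11 was far above the other two in level. It was 18.6 in flask 10, where EPX rested on 40.2 counts, between 3.01 and 7.42 in FGF2 flasks, between 2.59 and 5.98 in acute libraries, against 2.05 to 3.80 in parental libraries. This ratio depends on how reads are split between PRG2 and an overlapping gene model, described below. The ratio of RNASE2 to RNASE3, per length, was 7.50 to 9.46 in FL flasks, 9.26 to 10.6 in FGF2 flasks and 4.24 to 4.94 in acute libraries, against 7.40 to 7.56 in parental ones. Over the 14 libraries, log2 CPM of EPX and PRG2 had a Pearson r of 0.97, EPX and PRG3 0.95, PRG2 and PRG3 0.94, and the other pairs 0.66 to 0.84. These correlations describe libraries that share arms, and the FL flasks that chose the genes are among them.

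**Figure D3:**
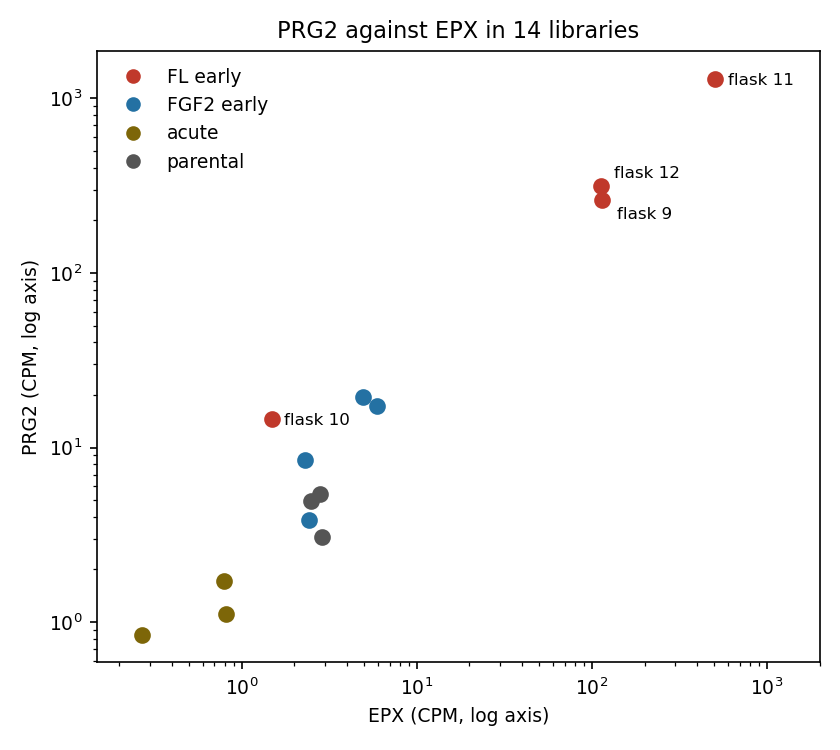
PRG2 against EPX in CPM in 14 libraries, both axes logarithmic, with each dot a library coloured by arm. FL flasks 9, 11 and 12 lie in the upper right corner, flask 10 lies with the FGF2 flasks for PRG2 but left of every parental library for EPX, and the acute libraries are lowest.

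Some reads of these genes can be assigned to other gene models. PRG2 shares 764 of its 1564 stretches of 31 bases (48.8%) with ENSG00000254979, an overlapping model on the same strand that GENCODE 29 calls AP000781.2. That model had 91.6, 17.0, 175.4 and 98.8 CPM in FL flasks 9, 10, 11 and 12, against 3.45 to 6.01 CPM in parental libraries, high in the same flasks as PRG2. PRG2 and the model together had 353.2, 31.5, 1475.7 and 412.5 CPM in flasks 9, 10, 11 and 12, and the split between them is uncertain. Parental libraries had 8.42 to 11.01 CPM of both together. The rise over parental cells in flasks 9, 11 and 12 was therefore smaller for both together than the folds given for PRG2 alone. Counts of PRG2 and the model for each count of EPX were 3.09, 2.92 and 3.64 in flasks 9, 11 and 12. They were 21.2 in flask 10, against 3.18, 3.92 and 3.39 in parental libraries. With the model included, flasks 9, 11 and 12 were thus not set apart from parental libraries in this ratio. RNASE2 shared 15.2% and RNASE3 15.5% of their stretches of 31 bases with other genes, 89 of them with each other. EPX shared 25 stretches with MPO, or 0.93%, and PRG3 shared none.

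The contrasts that leave out the FL flasks were open to a test for the 4 members with counts in every arm. In acute cells, RNASE2 fell to 130.0 ± 11.1 CPM (SD, n = 3), against 284.7 ± 9.82 CPM in parental cells, a log2 change of −1.13 ± 0.10 (adjusted p = 2.78e-07, lower in 3 of 3 libraries). RNASE3 averaged 27.2 ± 4.42 CPM in acute cells and 36.4 ± 1.21 CPM in parental cells, a log2 change of −0.42 ± 0.15 (adjusted p = 0.023). That RNASE3 call was lost without parental replicate 2 (adjusted p = 0.0577), without the acute library with FGF2 (0.0933) or without the one with FL (0.0581), and with scaling to total counts alone (0.0774). EPX and PRG2 lay below every parental library in all 3 acute libraries, at log2 differences of −2.08 ± 1.67 (adjusted p = 0.295) and −1.85 ± 1.42 (adjusted p = 0.271), and did not pass the test. The spread in that fit is shared by all arms, the FL flasks included. In a fit of the acute and parental arms alone, EPX was at −2.13 ± 0.38 (adjusted p = 0.00118) and PRG2 at −1.90 ± 0.33 (adjusted p = 0.000958). Of all genes, 62.6% were called between acute and parental cells, with 30.3% of all genes lower, so 2 calls among 5 members, both lower, say nothing particular to the members.

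In the FGF2 early line 1 member passed the test against parental cells, and in the lower direction. RNASE2 averaged 274.3 ± 21.5 CPM in FGF2 flasks (SD, n = 4) and 284.7 ± 9.82 CPM in parental cells, a log2 difference of −0.05 ± 0.09 (adjusted p = 0.694) that was 0.02 with scaling to total counts alone. RNASE3 fell to 26.4 ± 3.36 CPM in FGF2 flasks, against 36.4 ± 1.21 CPM in parental cells, with all flasks below all parental libraries (log2 change −0.46 ± 0.14, adjusted p = 0.0199). The RNASE3 call did not hold without FGF2 flask 5 (adjusted p = 0.0623), flask 7 (0.052) or flask 8 (0.0528), without parental replicate 1 (0.0595) or 2 (0.0682), or with total counts alone (0.0671). EPX averaged 3.91 ± 1.83 CPM and PRG2 12.2 ± 7.32 CPM in FGF2 flasks, with log2 differences from parental cells of 0.51 ± 1.20 (adjusted p = 0.78) and 1.44 ± 1.05 (adjusted p = 0.32). That call stands beside 30.4% of all genes, 17.1% called lower. Those 2095 higher and 2698 lower calls became 2875 and 2154 with total counts alone.

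Between the FGF2 early line and acute cells, RNASE2 rose by 1.08 ± 0.10 on the log2 scale (adjusted p = 2.85e-07, all 4 flasks above all 3 acute libraries). PRG2 rose by 3.30 ± 1.27 (adjusted p = 0.0354). That call was lost without FGF2 flask 6 (adjusted p = 0.0602) or flask 7 (0.0687), without the acute library with gilteritinib alone (0.113), with FGF2 (0.0735) or with FL (0.0975), and with no low-count filter (0.1). EPX differed by 2.59 ± 1.53 (adjusted p = 0.156), and was called in a fit of these 2 arms alone (0.00101), with DESeq2 (0.023) and without FL flask 10 (0.0119). RNASE3 differed by −0.04 ± 0.14 (adjusted p = 0.796). The 2 members called, both higher, stand beside 63.5% of all genes, 31.1% called higher. Within the acute arm each ligand state has 1 library and no test, and neither FGF2 nor FL gave a PRG2 or EPX level above the parental range.

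The other genes that define eosinophils ranged widely in level. Of 16 such genes, 6 stayed below 1 CPM in every library and 10 reached it, with SPNS3 the most abundant in flask 11, at 4135 counts. CLC, which encodes the Charcot-Leyden crystal protein galectin-10, had 9 counts in FL flask 11 and 3 in flask 12, against 0 in every other library. IL5RA, the receptor chain for interleukin-5, had 3, 0, 13 and 1 counts in FL flasks 9, 10, 11 and 12, and 0 to 7 in the other libraries. SIGLEC8, an inhibitory lectin of mature eosinophils, had 4, 8, 15 and 10 counts in those flasks, against 3 to 6 in parental libraries. CLC, IL5RA and SIGLEC8 were thus near the limit of detection in flask 11, where EPX and PRG2 were highest.

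Of the 16 genes 11 were tested between the FL early line and parental cells, where 4 rose, 2 fell and the median log2 change was 0.65, beside 10.9% of all genes called higher, 9.76% lower and a median of 0.01. ADGRE1, an adhesion receptor of the eosinophil surface in humans, rose to 2.16, 2.38, 4.98 and 2.63 CPM in FL flasks 9, 10, 11 and 12, against 0.67 to 1.12 CPM in parental libraries (log2 change 1.74 ± 0.36, adjusted p = 0.00444). CCR3, the eotaxin receptor, fell to 0.037 to 0.158 CPM in FL flasks, against 0.432 to 1.33 CPM in parental libraries (−3.06 ± 0.62, adjusted p = 0.00407). Both calls held under all 21 alternatives. CCR3 was also below every parental library in FGF2 flasks, at 0.060 to 0.378 CPM, and above them in acute libraries, at 1.92 to 3.08 CPM. PTGDR2, a prostaglandin D2 receptor, had 18, 0, 51 and 12 counts in flasks 9, 10, 11 and 12, against 1 or 2 in parental libraries (adjusted p = 0.0332), and so shared the low flask 10. Its call was lost without each parental replicate (0.124, 0.0936 and 0.0964) and in the fit of the 2 arms alone (0.0839). The count of 6 calls was 3 without flask 11, 3 without flask 12, 2 without parental replicate 1 and 3 without parental replicate 3. SPNS3 rose by 0.60 ± 0.14 (adjusted p = 0.00868) but was not called without parental replicate 1 (0.0547), and ADGRE4P and SMPD3 had adjusted p-values of 0.0451 and 0.0468 and were not called in 12 and 15 of the alternatives. OLIG2, a transcription factor gene also transcribed in eosinophils, had 76, 180, 470 and 408 counts in FL flasks 9, 10, 11 and 12 and at most 1 in FGF2 flasks, against 114 to 132 in parental libraries. It did not pass the test between FL flasks and parental cells (1.14 ± 0.45, adjusted p = 0.0854).

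Regulators of the eosinophil lineage included genes with the same low flask 10. CEBPE, which encodes the C/EBP factor of terminal granulocyte maturation, rose to 17.7, 1.56, 20.6 and 8.98 CPM in FL flasks 9, 10, 11 and 12, against 0.45, 0.70 and 0.50 CPM in parental libraries (log2 change 4.46 ± 0.87, adjusted p = 0.00366). It had 0.99, 4.83, 1.38 and 0.75 CPM in FGF2 flasks 5 to 8, and its difference between the early lines was 2.63 ± 0.68 (adjusted p = 0.0217). That second call was lost without FGF2 flask 5 (0.0654), flask 7 (0.0658) or flask 8 (0.065), without FL flask 11 (0.0657), in the fit of the 2 arms alone (0.0644) and with no low-count filter (0.0603). GATA1, the factor that commits progenitors to the eosinophil lineage, was too scarce to be tested, with 10, 0, 33 and 15 counts in FL flasks 9, 10, 11 and 12 and 0 in FGF2 flasks, against 1 in each parental library. The CEBPE and GATA1 transcripts were therefore lowest in the same FL flask as EPX, PRG2 and PRG3, though flask 9 stood higher for CEBPE than flask 12.

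Other regulators were raised in flask 10 as well. GATA2, an upstream GATA factor of early progenitors, rose to 65.1, 56.7, 74.8 and 52.1 CPM in FL flasks 9, 10, 11 and 12, against 13.7, 14.7 and 19.5 CPM in parental libraries (1.96 ± 0.24, adjusted p = 0.000136). FGF2 flasks had 27.6 to 56.6 CPM of GATA2, and the early lines did not pass the test against each other (0.55 ± 0.20, adjusted p = 0.0904). SPI1, which encodes PU.1, rose by 0.89 ± 0.11 (adjusted p = 0.000174), and GFI1, a transcriptional repressor needed for granulocyte development, by 0.46 ± 0.10 (adjusted p = 0.00672). SPI1 had 144.9 to 179.2 CPM in FL flasks, 108.1 to 129.5 CPM in FGF2 flasks and 157.7 to 186.9 CPM in acute libraries. GFI1 had 133.3 to 178.8 CPM in FL flasks, 167.0 to 185.4 CPM in FGF2 flasks and 95.7 to 107.5 CPM in acute libraries. CEBPA, needed for the first step from progenitor to granulocyte, had 252.5, 326.2, 73.2 and 78.8 CPM in FL flasks 9, 10, 11 and 12, against 26.3 to 62.1 CPM in parental libraries. Among FL flasks CEBPA was thus highest in flask 10, where EPX was lowest. FGF2 flasks had 50.2 to 143.8 CPM of CEBPA, and acute libraries 81.0, 104.2 and 280.6 CPM (drug alone, plus FGF2, plus FL). The CEBPA rise over parental cells (2.16 ± 0.63, adjusted p = 0.027) was not called without flask 10 (0.066) or flask 9 (0.0597). Nor was it called without parental replicate 1 (0.116) or 2 (0.107), or with no low-count filter (0.0914).

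Of the 14 regulators 13 were tested between FL flasks and parental cells, and 6 rose, 4 fell and the median was 0.33. In that comparison 10.9% of all genes were called higher and 9.76% lower. CEBPB rose by 0.90 ± 0.23 (adjusted p = 0.0157), but not without parental replicate 2 (0.0825). FGF2 flasks (4.69 to 6.89 CPM) and acute libraries (10.0 to 14.9 CPM) also lay above its parental range of 3.55 to 4.53 CPM. IRF8, a factor that steers progenitors to monocytes, fell to 280.1, 467.9, 469.4 and 531.7 CPM in FL flasks 9, 10, 11 and 12, against 894.8 to 961.5 CPM in parental libraries (−1.10 ± 0.15, adjusted p = 0.000366). FGF2 flasks had 275.5 to 323.6 CPM of IRF8, also below the parental range. TRIB1, a pseudokinase that limits C/EBPα protein, fell by 0.56 ± 0.12 (adjusted p = 0.00595), and ID2, an inhibitor of helix-loop-helix factors, by 0.65 ± 0.10 (adjusted p = 0.000836). In FGF2 flasks ID2 was also below its parental range (48.2 to 64.7 CPM against 79.4 to 83.1 CPM). TRIB1 was above its parental range there (52.6 to 77.6 CPM against 40.3 to 46.9 CPM). XBP1, a factor that eosinophil precursors need in mice, fell by 0.64 ± 0.17 (adjusted p = 0.019), which was lost without parental replicate 1 (0.0671) or 2 (0.0681). FGF2 flasks (224.2 to 231.9 CPM) and acute libraries (44.1 to 76.9 CPM) also lay below its parental range of 299.2 to 318.5 CPM. Between FL and FGF2 flasks 4 of the 13 were higher and 1 lower, beside 9.56% of all genes called higher and 4% lower. Among the higher calls, that of CEBPE was lost in 6 of 21 alternatives and that of IRF8 in 1.

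**Figure D4:**
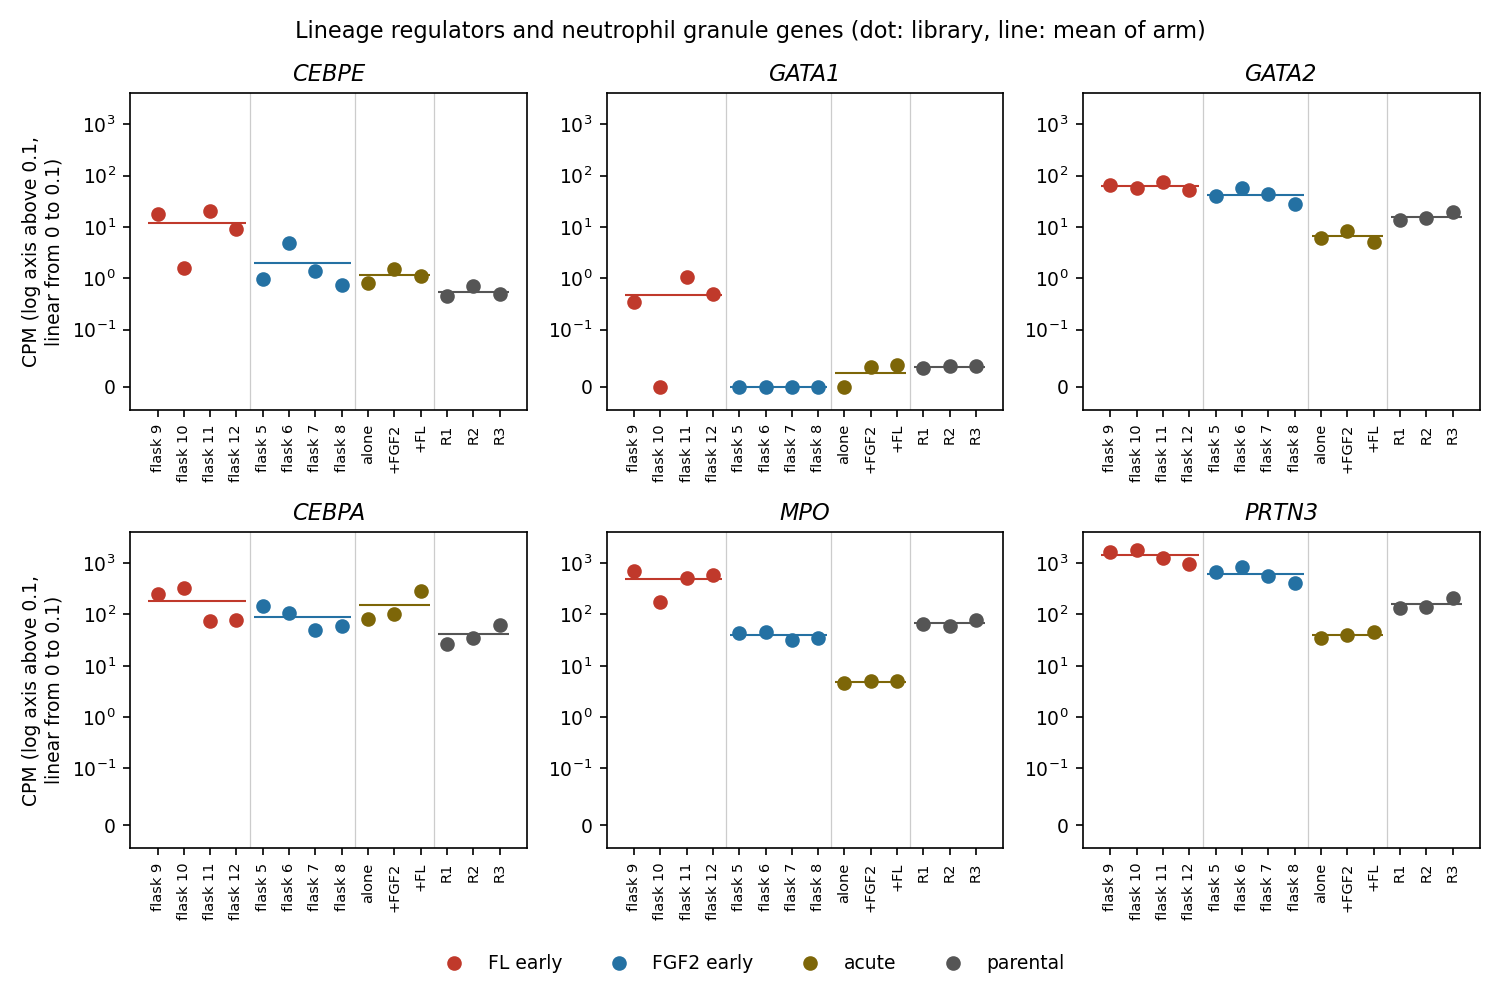
CEBPE, GATA1, GATA2 and CEBPA, regulators of the granulocyte and eosinophil lineages, and MPO and PRTN3, neutrophil granule genes, in CPM by library on an axis that is logarithmic above 0.1 CPM and linear below it. Each dot is a library and each line the mean of an arm. CEBPE and GATA1 are lowest in FL flask 10 within their line, at 1.56 and 0 CPM, and CEBPA is highest there, at 326.2 CPM.

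No receptor chain for interleukin-5, interleukin-3 or GM-CSF, the cytokines that drive eosinophil growth, passed the test between FL flasks and parental cells, and IL5RA was too scarce to be tested. Of 8 genes of this pathway 7 were tested against parental cells, and STAT5A, a signal transducer of these receptors, was the 1 gene that rose (0.48 ± 0.08, adjusted p = 0.00096). That call stands beside 20.7% of all genes. STAT5A had 57.0 to 67.2 CPM in FL flasks, against 42.1 to 47.9 CPM in parental libraries. It was also above the parental range in FGF2 flasks (65.1 to 75.9 CPM) and in acute libraries (92.8 to 99.1 CPM). Between FL flasks and parental cells, the shared receptor chain CSF2RB differed by 0.52 ± 0.22 (adjusted p = 0.105), IL3RA by 0.03 ± 0.23 (adjusted p = 0.946) and CSF2RA by −0.03 ± 0.19 (adjusted p = 0.925). The median of the 7 was 0.13. The values of IL3RA did not follow those of EPX from flask to flask, with 27.5, 77.6, 60.1 and 58.2 CPM in flasks 9, 10, 11 and 12.

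Neutrophil granule genes rose in the same line, but in all 4 flasks. Of 10 primary granule genes 9 were tested, and all 9 rose against parental cells, with a median log2 change of 2.56, beside 10.9% of all genes called higher. Their summed level was 5759 to 7377 CPM in FL flasks, 2224 to 3378 CPM in FGF2 flasks and 1037 to 1229 CPM in acute libraries, against 1121 to 1549 CPM in parental ones. Among the 9 calls against parental cells, that of LYZ was lost in 6 of 21 alternatives. These included the fits without flask 11 (adjusted p = 0.0634), flask 12 (0.0711) or each parental replicate (0.092, 0.0913 and 0.0827). PRTN3, which encodes proteinase 3, had 1672, 1831, 1237 and 943.7 CPM in FL flasks 9, 10, 11 and 12, against 132.9 to 209.0 CPM in parental libraries (3.14 ± 0.29, adjusted p = 1.45e-05). AZU1 (azurocidin) rose by 2.21 ± 0.19 (adjusted p = 8.11e-06) and CTSG (cathepsin G) by 2.10 ± 0.17 (adjusted p = 7.53e-06). PRTN3 was highest in flask 10. CTSG was lowest there, with 581.0, 315.0, 359.2 and 419.8 CPM in FL flasks 9, 10, 11 and 12, yet above the 92.7 to 100.5 CPM of parental libraries.

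MPO, the peroxidase of neutrophils and the nearest relative of EPX on the list, took a place between both patterns. It had 702.1, 171.8, 513.1 and 580.1 CPM in FL flasks 9, 10, 11 and 12, then 32.3 to 46.1 CPM in FGF2 flasks and 4.66 to 5.16 CPM in acute cells, against 64.3, 60.6 and 79.2 CPM in parental cells. Flask 10 was again the lowest FL flask but stayed above the parental range. The change in the FL line was 2.85 ± 0.36 (adjusted p = 0.000177). Counts of MPO for each count of EPX were 6.13, 1.02 and 5.12 in flasks 9, 11 and 12, 116 in flask 10, against 21.6 to 31.9 in parental libraries. LPO, another peroxidase of the list, differed from parental by −0.01 ± 0.12 (adjusted p = 0.958).

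Secondary and tertiary neutrophil granule genes were mostly scarce. Of 11 such genes 8 were below 1 CPM in every library, OLFM4, CRISP3 and PGLYRP1 were at 0 counts, and none of the 3 tested passed against parental cells, with CHIT1 at −0.63 ± 0.63 (adjusted p = 0.519), MMP9 at 0.60 ± 0.87 (adjusted p = 0.67) and SLPI at 0.20 ± 0.42 (adjusted p = 0.777). Their sum was 2.84 to 17.8 CPM in FL flasks, against 8.20 to 8.60 CPM in parental libraries. Between these arms 20.7% of all genes were called. SLPI, a protease inhibitor, had 2.67, 6.58, 16.7 and 7.25 CPM in FL flasks 9, 10, 11 and 12, against 7.04 to 7.42 CPM in parental libraries.

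Markers of other cell types were checked beside the granule genes. Of 12 basophil and mast cell markers, 5 were tested and 3 rose in FL flasks, beside 10.9% of all genes called higher. HPGDS and IL4 were at 0 counts throughout. The 12 markers summed to 66.2 to 113.0 CPM in FL flasks and 13.7 to 23.8 CPM in FGF2 flasks, against 31.7 to 34.9 CPM in parental libraries. TPSAB1, a mast cell tryptase, had 6, 5, 85 and 51 counts in FL flasks 9, 10, 11 and 12, against 0 in parental libraries. TPSB2, its near-identical neighbour, had 63, 57, 183 and 79 counts, against 1 or 2 in parental libraries (adjusted p = 5.27e-05), and reads can be split between the 2 genes. The tryptase transcripts were also present in FGF2 flasks 5 to 8, with 28, 12, 15 and 16 counts of TPSAB1 and 72, 103, 100 and 51 of TPSB2, and TPSB2 did not pass the test between FL and FGF2 flasks (0.27 ± 0.37, adjusted p = 0.688). MS4A3, a marker of granulocyte progenitors and basophils, rose to 61.4 to 103 CPM in FL flasks, against 28.5 to 31.9 CPM in parental libraries (1.34 ± 0.26, adjusted p = 0.00369).

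Of 12 monocyte and macrophage markers, 10 were tested, 2 rose and 1 fell, beside 10.9% of all genes called higher and 9.76% lower. The summed level of the 12 markers was 163.9 to 232.7 CPM in FL flasks, against 145.1 to 149.7 CPM in parental ones. S100A9, a calcium-binding protein of neutrophils and monocytes, had 17.9, 2.01, 56.2 and 18.7 CPM in FL flasks 9, 10, 11 and 12, against 1.99 to 2.70 CPM in parental libraries, the same order of flasks as PRG2 and PRG3 and a level within the parental range in flask 10. Its call (3.38 ± 1.03, adjusted p = 0.0331) was lost without flask 11 (0.0794), without each parental replicate (0.118, 0.114 and 0.081), without the acute libraries (0.0506) and with no low-count filter (0.105). CX3CR1, the fractalkine receptor, fell by 1.08 ± 0.24 (adjusted p = 0.00722), and CD68, a lysosomal protein of macrophages, rose by 0.32 ± 0.08 (adjusted p = 0.0122), a call lost without parental replicate 2 (0.053). CX3CR1 was also below its parental range of 22.1 to 24.2 CPM in FGF2 flasks, at 8.99 to 11.3 CPM. Both genes were highest in acute libraries, with 55.1 to 84.2 CPM of CX3CR1 and 238.9 to 276.6 CPM of CD68. Of 11 erythroid and megakaryocyte markers, 3 were tested and 2 rose, beside 10.9% of all genes called higher. GP9, a platelet glycoprotein, had 0.92, 0.22, 0.47 and 0.60 CPM in FL flasks 9, 10, 11 and 12, against 0.032 to 0.111 CPM in parental libraries (adjusted p = 0.00419). EPOR, the erythropoietin receptor, rose by 0.41 ± 0.12 (adjusted p = 0.0281), a call lost without FL flask 9 (0.0505), FL flask 12 (0.067) or each parental replicate (0.142, 0.0501 and 0.0573), and ITGA2B, a platelet integrin, differed by 0.07 ± 0.50 (adjusted p = 0.942). HBB and ALAS2 were at 0 counts and 9 of the 11 markers stayed below 1 CPM in every library, with sums of 18.1 to 22.4 CPM in FL flasks, against 13.2 to 16.4 CPM in parental ones. The part of any such cells in the EPX, PRG2 and PRG3 levels was not tested.

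Genes that package and release granules rose in part. Of 13 tested, 5 rose and none fell against parental cells, with a median of 0.14, beside 10.9% of all genes called higher and 9.76% lower. UNC13D, a priming factor of granule release, rose by 0.62 ± 0.09 (adjusted p = 0.000461), RAB27A, the granule-docking GTPase, by 0.53 ± 0.08 (adjusted p = 0.000687) and STXBP2, a syntaxin-binding protein, by 0.49 ± 0.08 (adjusted p = 0.000874). Between FL and FGF2 flasks 4 of the 13 were higher and none lower, beside 9.56% of all genes called higher and 4% lower. UNC13D and RAB27A were not called there, and the STXBP2 call was lost in 5 of 21 alternatives. Between FGF2 flasks and parental cells 4 rose and 3 fell, beside 30.4% of all genes called. Of 8 haem synthesis enzymes, which make the cofactor of EPX and MPO, 2 rose and 1 fell against parental cells. Their median was −0.03, beside 10.9% of all genes called higher and 9.76% lower. ALAS1, the first enzyme of the pathway, rose by 0.42 ± 0.08 (adjusted p = 0.00197) and CPOX, coproporphyrinogen oxidase, fell by 0.58 ± 0.08 (adjusted p = 0.000296). ALAD, the second enzyme, rose by 0.33 ± 0.09 (adjusted p = 0.0162), but not without parental replicate 1 (0.073) or 2 (0.056). None of the 8 enzymes was called between FL and FGF2 flasks, beside 13.6% of all genes. Between FGF2 flasks and parental cells 1 enzyme rose and 2 fell, beside 30.4% of all genes called.

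The other ribonucleases of the RNase A family were scarce, and 1 of them passed the test. Of 11 relatives 4 were tested and 7 stayed below 1 CPM in every library. Between FL flasks and parental cells 20.7% of all genes were called. RNASE6 had 4.65, 4.28, 7.60 and 9.44 CPM in FL flasks 9, 10, 11 and 12, against 8.65 to 10.2 CPM in parental libraries (−0.52 ± 0.23, adjusted p = 0.126). ANG, which encodes angiogenin, differed by −0.82 ± 0.44 (adjusted p = 0.205). RNASE10 was the 1 called (1.23 ± 0.39, adjusted p = 0.0384), at no more than 2.68 CPM in any library, and it was not called in 10 of 21 alternatives, with adjusted p up to 0.161.

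The profile of the 5 members was taken as the mean of their log2 CPM, each centred on its own mean, and 10941 genes with a mean log2 CPM of at least 1 were ranked by Pearson correlation with it over the 14 libraries. The model that overlaps PRG2 came first, with an r of 0.963. NAB2, a co-repressor of EGR factors, followed at 0.933, then PYGL, the glycogen phosphorylase of liver and leukocytes, at 0.926, HYAL3, a hyaluronidase, at 0.925, and PDE4D, a cAMP phosphodiesterase, at 0.924. S1PR3, a receptor for sphingosine 1-phosphate, ATG7, an autophagy enzyme, LINC02870, TENT5A and GLT8D1 completed the first 10, at 0.897, 0.889, 0.887, 0.882 and 0.882. S1PR3 had 16.3, 9.93, 38.5 and 39.3 CPM in FL flasks 9, 10, 11 and 12, against 11.5 to 12.6 CPM in parental libraries, and its flask 10 lay below all of these. TENT5A had 139.6, 75.6, 172.4 and 92.8 CPM in the same flasks, against 17.3 to 18.8 CPM in parental libraries. The ranking is descriptive, the libraries share arms, and 8 of the 10 were also in the first 10 with scaling to total counts alone. Among the listed genes outside the members, DEFA4, a defensin gene of neutrophil primary granules, came nearest with an r of 0.91, at no more than 3.63 CPM in any library. CEBPE followed at 0.88, then SRGN, the serglycin proteoglycan that holds basic proteins in granules, at 0.88, MPO, BPI and S100A9 at 0.87 each, GP9 at 0.85 and PTGDR2 at 0.82. GATA2 was at 0.77 and CEBPA at 0.03.

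SRGN gave the FL flasks the same order as PRG2 and PRG3, over a smaller range. It had 1940.5, 1835, 3136 and 2221 CPM in FL flasks 9, 10, 11 and 12, against 1357, 1439 and 1261 CPM in parental libraries, a log2 change of 0.76 ± 0.19 (adjusted p = 0.0122). Flask 11 was the highest library, as for all 5 members.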

How the data were processed

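Poly(A) RNA of 14 MOLM14 libraries was sequenced from a stranded mRNA kit, per the labels' protocols. The authors deposited 1 table of estimated counts per Ensembl gene, and the submitters' processing notes name kallisto and the build GRCh37. The kallisto version, the annotation and how transcripts were summed to genes are not given in the sources used here. The reference at hand was GENCODE 29 for GRCh38, so it served only for names (33353 identifiers, 84.9%), transcript lengths, overlaps and shared stretches of 31 bases, and no gene coordinates are given. Promoter windows came from RefSeq (GRCh38.p14), where 3 of the 5 members matched by symbol.

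Estimated counts were rounded, filtered with filterByExpr (minimum count 10, minimum total 15) and scaled with TMM, which left 15756 genes. All 14 libraries were fitted in 4 arms with the robust quasi-likelihood test of edgeR 4.0.16 in R 4.3.3, two-sided, with Benjamini-Hochberg adjustment over all genes tested. A gene was called at an adjusted p under 0.05, and every adjusted p is from this test unless DESeq2 1.42.0 is named. CPM are TMM-scaled. Errors of fold changes are standard errors worked back from that test, as the size of the log2 change divided by the square root of its F statistic. For the members in the FL comparisons they describe the scatter and are not read as a test. PRG3 and other genes with 3 counts or fewer throughout an arm have no fitted fold. The acute arm holds 1 library per ligand state, so its spread includes differences between ligands. Limits on counts cover counting error only.

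The 5 members and the 12 other gene lists were chosen with earlier results of these data known. Named genes are the members, the eosinophil, regulator and receptor lists, up to 3 genes of each other list with the smallest adjusted p between FL early and parental, MPO, the model overlapping PRG2, and the 10 genes nearest to the members' profile. Other genes named (SRGN, DEFA4, BPI, LYZ and those given as at 0 counts) were chosen after their values were seen. The scripts were tested on simulated data. Other scalings, another filter, DESeq2, fits of 2 arms and fits without single libraries were tried as alternatives. The values of 1 erythroid marker are not reported here.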

Additional observations from a re-analysis of the deposited data

Results flagged for a closer look

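Among 71 groups of 4 libraries examined gene by gene, 2 held a library far from the other 3, where chance alone flags about 1 in 20 groups. RNASE3 in FGF2 flask 6, at 31.4 CPM, lay apart from the other FGF2 flasks by 0.953 of the whole range of the 4 in log2 CPM. IRF8 in FGF2 flask 5, at 323.6 CPM, did so by 0.953 of its range in log2 CPM.

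RNASE3 lay above the parental mean of 36.4 CPM in all 4 FL flasks and below it in all 4 FGF2 flasks, a difference that was not tested because the FL flasks chose the gene.

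Of the eosinophil, regulator and receptor lists and MPO, the following differed between the FL and FGF2 early lines in the edgeR test. MPO differed by 3.65 on the log2 scale (adjusted p = 2e-05), CEBPE by 2.63 (0.0217), ADGRE4P by 1.90 (0.00588), ID1 by 1.89 (0.000195), ADGRE1 by 1.41 (0.00954) and IL3RA by 1.31 (0.00155). SPNS3 differed by 0.96 (0.00034), CSF2RA by 0.73 (0.0151), CSF2RB by 0.67 (0.0383), IRF8 by 0.60 (0.0134), SPI1 by 0.43 (0.012) and TRIB1 by −1.08 (5.19e-05). OLIG2 averaged 9.42 CPM in FL flasks beside at most 1 count in each FGF2 flask (adjusted p = 8.88e-06). The CEBPE call was lost without FGF2 flask 5, 7 or 8 or FL flask 11 (adjusted p 0.065 to 0.0658), the CSF2RA call without FGF2 flask 7 (0.0524) and the IRF8 call in the fit of the 2 arms alone (0.0538). The CSF2RB call was lost in 10 of 21 alternatives, with adjusted p up to 0.123.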

How the results depend on the processing

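The estimated changes of EPX and PRG2 in the FL early line rest on 4 flasks that differ widely, 1 of which has 40.2 estimated counts of EPX, and in other arms EPX, PRG2 and PRG3 are limited by counts. Leaving out each library in turn gave 1512 to 3943 genes called between FL early and parental (3259 with all libraries), 1351 to 3274 between FL and FGF2 early (2137), 8893 to 9524 between FL early and acute, 3283 to 5444 between FGF2 early and parental, 9354 to 10223 between FGF2 early and acute, and 9066 to 10083 between acute and parental. The count of eosinophil genes beyond the members that were called was 2 to 7 (6 with all libraries). No other alternative moved these counts by over 1.5 times. Without FL flask 11 the FL minus FGF2 difference was 4.30 for EPX and 4.01 for PRG2.

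Of the 4 values that turned direction, none was called. RNASE2 between FGF2 early and parental was 0.024 with total counts alone. RNASE3 between FGF2 early and acute ranged from −0.135 to 0.088 as each library was left out, and turned to 0.032 without FGF2 flask 5, 0.003 without FL flask 10 and 0.088 without the acute library with gilteritinib alone. The cause was not tested.

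The replicate numbers did not pair the libraries, since deviations from the arm means correlated between −0.09 and 0.07 for same-numbered libraries. A fit with the replicate number as a block, without the acute libraries, called 3053 genes between FL early and parental, 1948 between FL and FGF2 early and 4301 between FGF2 early and parental, with 6 of the eosinophil genes. The same fit without the block, chosen after seeing the data, called 3762, 2346 and 5294 genes, with 5 of the eosinophil genes. Between FL early and parental, the adjusted p in the blocked fit was 0.0977 for CEBPA, 0.0647 for PTGDR2, 0.102 for SMPD3, 0.0872 for RNASE10, 0.0596 for S100A9 and 0.0517 for EPOR, each called without the block in the fit of all libraries. No block was possible for comparisons with the acute arm, whose libraries are single ligand states.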

Other observations

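FGF2 flask 6 stood out within its line in several genes of the myeloid lists, all chosen after their values were seen. S100A9 had 27.7 CPM in flask 6, beside 2.69 to 3.84 CPM in the other 3 FGF2 flasks and 1.99 to 2.70 CPM in parental libraries. S100A8, its partner subunit, had 14.4 CPM there, beside 2.25 to 2.65 CPM in the others. CEBPE was at 4.83 CPM in flask 6, beside 0.75 to 1.38 CPM, and EPX at 5.94 CPM, beside 2.30 to 4.96 CPM. PRG2, at 17.3 CPM, was second there to flask 7, at 19.4 CPM.

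KIT, the stem cell factor receptor of progenitors and mast cells, was chosen after its values were seen. It had 1.51, 3.98, 0.22 and 0.07 CPM in FL flasks 9, 10, 11 and 12 and 23.1 to 37.2 CPM in acute cells, against 2.22 to 2.66 CPM in parental cells. Its flask 10 was thus the highest FL flask. The KIT difference between FL flasks and parental cells did not pass the edgeR test (−0.81 ± 0.71, adjusted p = 0.454).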
